A study of Rattus norvegicus with 30 samples.

Results

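The growth hormone and IGF1 axis of the rat liver was followed through 8 genes, namely the growth hormone receptor Ghr, the transcription factors Stat5b and Bcl6, the feedback inhibitors Socs2 and Cish, and the liver outputs Igf1, Igfbp1 and Igfals. The members were chosen by gene name, as every probe set (a group of short oligonucleotides that reads a transcript) whose annotation names that gene alone, which gave 12 of the 31099 probe sets of the GeneChip Rat Genome 230 2.0 array. Of these, 8 probe sets of 5 genes (Igf1, Ghr, Bcl6, Stat5b and Igfbp1) reached the level at which probe sets were tested in at least 1 group of wells, and 4 probe sets of Socs2, Cish and Igfals did not.

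RNA came from 30 wells of primary hepatocytes of male Sprague Dawley rats, bought frozen, grown on collagen beneath Matrigel in modified Chee's medium and treated on day 3 of culture. Phenobarbital, a barbiturate that switches on drug-metabolising enzymes in liver through the nuclear receptor CAR, was given at 3000 µM or 300 µM, and cells were taken after 48 h or 24 h. The 6 groups were thus 3000 µM, 300 µM and vehicle at 48 h, and the same 3 at 24 h, with 5 wells in each. Titles call the vehicle water whereas the agent field gives culture medium. The labels describe the wells as independent cultures but number no animals, and p-values therefore measure the spread between wells, not between animals. The labelled culture protocol names no growth hormone, and it gives the composition of the medium by name only.

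Growth hormone is released by the pituitary in a pattern that differs between male and female rats. It binds its receptor on hepatocytes, the kinase JAK2 phosphorylates STAT5B, and STAT5B drives the transcription of Igf1, the main circulating growth factor made by the liver, and of Igfals, whose product holds IGF1 and IGFBP3 in a long-lived complex in blood. Socs2 and Cish are also STAT5 targets and their products dampen the receptor's signal, while BCL6 is a repressor that, in mouse liver, binds many of the sites that STAT5 binds. Igfbp1 encodes a binding protein that carries IGF1 and is known for its repression by insulin.

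The promoter windows of 7 of the 8 members were found in RefSeq (build GRCr8), the window running from 250 bases before to 50 bases after the start of the gene. The windows were searched on both strands for the STAT5 motif TTCNNNGAA, the insulin response element core CAAAACA, the forkhead motif GTAAACA and the C/EBP-ATF motif TGATGNAA. Those 3 windows with any match are shown, Cish for its STAT5 motifs, and all 3 because they share an insulin response core. Capitals mark the matches to TTCNNNGAA and CAAAACA.
Cish promoter, chr8:116850719-116851018, plus strand: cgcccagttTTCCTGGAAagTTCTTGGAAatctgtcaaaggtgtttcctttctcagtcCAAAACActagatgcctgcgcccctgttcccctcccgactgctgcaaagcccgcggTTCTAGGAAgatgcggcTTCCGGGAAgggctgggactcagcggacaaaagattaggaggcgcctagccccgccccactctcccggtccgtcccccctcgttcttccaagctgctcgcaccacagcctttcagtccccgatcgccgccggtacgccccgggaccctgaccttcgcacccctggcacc
Igfbp1 promoter, chr14:86261027-86261326, plus strand: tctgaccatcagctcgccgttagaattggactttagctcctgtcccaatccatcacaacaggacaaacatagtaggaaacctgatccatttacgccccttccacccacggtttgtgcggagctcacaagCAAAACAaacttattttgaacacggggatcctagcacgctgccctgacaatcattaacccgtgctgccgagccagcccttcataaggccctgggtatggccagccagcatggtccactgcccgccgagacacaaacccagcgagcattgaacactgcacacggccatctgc
Igf1 promoter, chr7:24172282-24172581, plus strand: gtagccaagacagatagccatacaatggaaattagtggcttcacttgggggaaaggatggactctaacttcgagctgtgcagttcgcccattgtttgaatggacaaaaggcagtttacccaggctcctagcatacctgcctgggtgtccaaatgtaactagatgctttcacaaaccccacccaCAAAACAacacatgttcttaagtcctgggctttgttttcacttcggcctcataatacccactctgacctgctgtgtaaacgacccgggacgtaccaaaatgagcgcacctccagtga
The Cish window held 4 STAT5 motifs, which start at -241, -230, -136 and -119 (the base before the start of the gene is -1), and a CAAAACA core at -192. That core starts at -121 in the Igfbp1 window and at -67 in the Igf1 window. The windows of Ghr, Bcl6, Stat5b and Igfals held none of the 4 motifs. Among 33469 promoter windows of the same length, TTCNNNGAA was found in 8.87%, CAAAACA in 6.28%, TGATGNAA in 3.98% and GTAAACA in 3.78%, and the motifs do not overlap each other in the windows shown. A match describes the letters of the window only.

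Signals are the deposited linear values, and tests were run on their log2 with limma across all 16596 probe sets that reached a group mean of log2 8.58 (signal 383.6), with Benjamini-Hochberg adjustment and a call at an adjusted p under 0.05. A gene with several probe sets is represented in counts by the probe set with the highest mean. On 28 arrays the spiked hybridization controls averaged between 13 and 13.35 on the log2 scale, but they averaged 14.57 on replicate 4 of 3000 µM at 48 h and 14.14 on replicate 1 of vehicle at 24 h. The main results are therefore also given without these 2 arrays.

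At 3000 µM the signals of the ligand Igf1, the receptor Ghr and the repressor Bcl6 fell. All 3 were lower than in vehicle wells at both times, Igfbp1 passed the test at neither time, and Stat5b was higher at 48 h. At 48 h, 4 of the 5 tested members were called (3 lower, 1 higher), where 39.4% of all tested probe sets were called, 19.9% lower and 19.5% higher. At 24 h, 3 of the 5 were called, all lower, where 32% of all tested probe sets were called and 14.8% were called lower. The median log2 change of the 5 members was -1.02 at 48 h and -0.68 at 24 h, against medians of -0.0008 and 0.0093 over all tested probe sets. In RNA from whole wells, fewer cells of a type and less RNA per cell cannot be told apart.

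**Figure D1:**
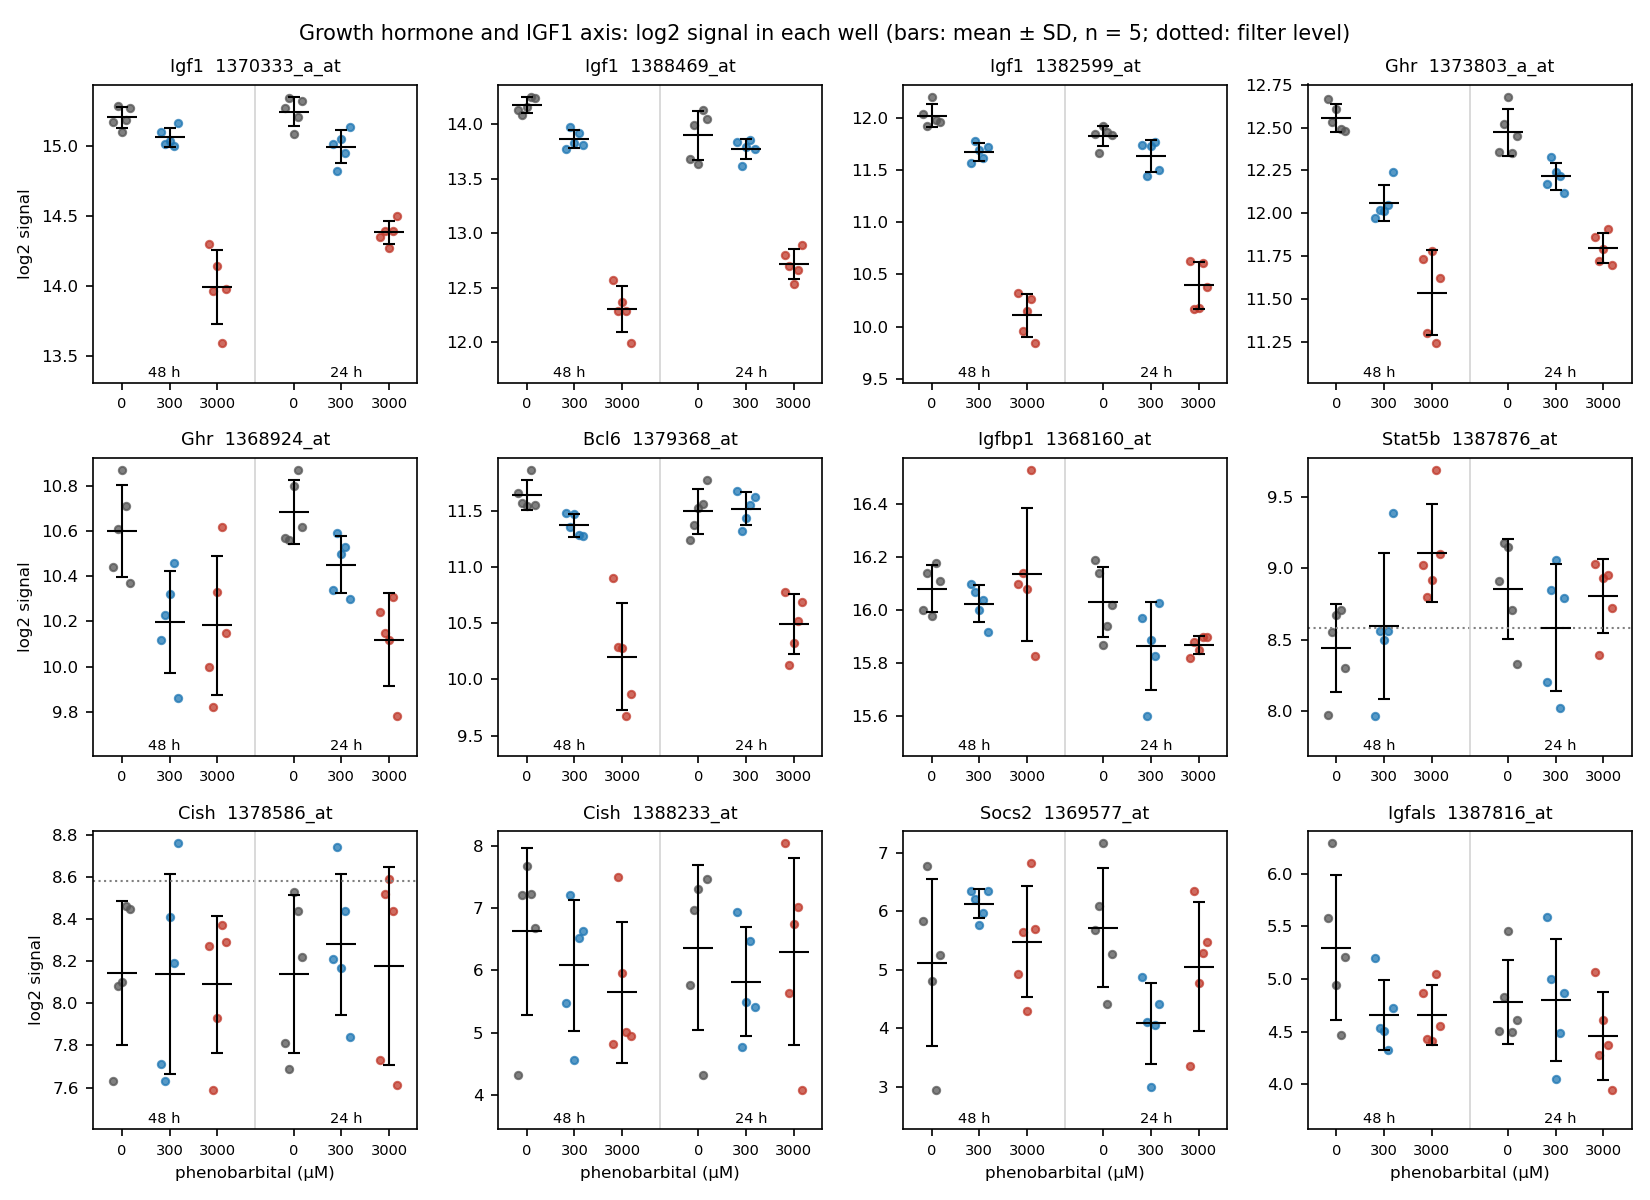
Log2 signal of all 12 probe sets of the axis (vertical axes, each with its own range) in each of the 30 wells, by phenobarbital dose in µM (horizontal axis, vehicle as 0) and time; points are wells, bars are the mean ± SD (n = 5) and the dotted line is the level at which probe sets were tested. The 3000 µM wells lie below the vehicle wells in all 3 Igf1 panels, in Bcl6 and in Ghr 1373803_a_at at both times, while the 3000 µM and vehicle wells of Igfbp1, Cish, Socs2 and Igfals overlap at each time.

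Igf1 was read by 3 probe sets, and all 3 were lower at 3000 µM at both times. Probe set 1370333_a_at, the brightest, read 20151, 15941, 18013, 12296 and 16181 in the 3000 µM wells at 48 h. The vehicle wells of that time read 36933, 39709, 35056, 37151 and 39624. Every treated well lay below every vehicle well, with the lowest in replicate 4, an array whose hybridization controls stood apart. The log2 mean was 13.99 ± 0.265 against 15.20 ± 0.076 in vehicle (SD, n = 5 each), a 2.31-fold lower signal (log2 change -1.21, SE 0.0804, limma adjusted p = 9.28e-14). Without the 2 arrays that stood apart the change was -1.11 (adjusted p = 2.13e-14).

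At 24 h the same Igf1 probe set read 20829, 21405, 19706, 21446 and 23111 at 3000 µM. Vehicle wells at 24 h read 39506, 41600, 34615, 37753 and 40860. The groups did not overlap, and the signal was 1.82-fold lower (log2 change -0.87, SE 0.0804, adjusted p = 3.47e-10). Without the 2 arrays that stood apart this 24 h change was -0.86 (adjusted p = 1.09e-11). In vehicle wells alone no change of Igf1 with time was called on this probe set (log2 change -0.04 at 48 h against 24 h, 95% confidence interval -0.21 to 0.12, adjusted p = 0.829).

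The other 2 Igf1 probe sets gave larger changes. On 1388469_at the 3000 µM wells read 6090, 5003, 5283, 5024 and 4055 at 48 h, against 17951, 17291, 18311, 19481 and 19391 in vehicle wells. The highest treated well was far below the lowest vehicle well, and the signal was 3.66-fold lower (log2 change -1.87, SE 0.0885, adjusted p = 4.87e-17). On 1382599_at the 3000 µM wells read 1278, 998, 1134, 1225 and 917 at 48 h, against 4221, 3873, 4708, 4039 and 3989 in vehicle wells, again without overlap and 3.77-fold lower (adjusted p = 1.47e-16). The 95% confidence intervals at 48 h were -2.05 to -1.69 for 1388469_at and -2.11 to -1.72 for 1382599_at, and neither overlapped the interval of 1370333_a_at, which was -1.37 to -1.04. The probe sets of Igf1 therefore disagreed on the size of the decrease while sharing its direction, and which transcripts each reads was not examined.

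At 24 h the decrease of Igf1 was 2.26-fold on 1388469_at (log2 change -1.18, adjusted p = 3.69e-12) and 2.69-fold on 1382599_at (log2 change -1.43, adjusted p = 2.71e-13), and neither probe set overlapped vehicle. The difference between the 48 h and the 24 h effect of 3000 µM was itself called on these 2 probe sets, at a log2 difference of -0.69 for 1388469_at (SE 0.125, adjusted p = 0.00159) and -0.49 for 1382599_at (SE 0.136, adjusted p = 0.0362). The call on 1382599_at was lost under 4 processing alternatives, at adjusted p of 0.0536 to 0.0805, and without any 1 of 9 arrays. It was -0.34 for 1370333_a_at and was not called (adjusted p = 0.0825). Vehicle signals on 1388469_at were themselves higher at 48 h than at 24 h by a log2 difference of 0.28, just short of the threshold (adjusted p = 0.0501), while at 3000 µM the means were 12.30 at 48 h and 12.72 at 24 h.

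Ordered by the mean of 1370333_a_at, Igf1 was highest in vehicle at 24 h (15.24), then vehicle at 48 h (15.20), 300 µM at 48 h (15.06), 300 µM at 24 h (14.99), 3000 µM at 24 h (14.38) and 3000 µM at 48 h (13.99). Neighbours overlapped in their wells except for the step between 300 µM and 3000 µM at 24 h, where the lowest 300 µM well read 28855 and the highest 3000 µM well 23111.

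Ghr, the entry point of the pathway, was read by 2 probe sets. On 1373803_a_at, the brighter, the 3000 µM wells at 48 h read 3392, 2522, 3529, 2426 and 3154. The vehicle wells read 6501, 5928, 6254, 5740 and 5708. All treated wells lay below all vehicle wells, in 2 tiers, with replicates 2 and 4 the lowest. The signal was 2.03-fold lower (log2 mean 11.54 ± 0.248 against 12.56 ± 0.0813 in vehicle, SD, n = 5 each; log2 change -1.02, SE 0.0843, adjusted p = 1.28e-11), and the change was -0.95 without the 2 arrays that stood apart (adjusted p = 3.7e-11).

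At 24 h Ghr 1373803_a_at read 3729, 3371, 3540, 3847 and 3323 at 3000 µM, against 5264, 5853, 6577, 5215 and 5608 in vehicle wells. The groups were again apart, and the signal was 1.6-fold lower (log2 change -0.68, SE 0.0843, adjusted p = 1.12e-07). That change was -0.70 without the 2 arrays that stood apart (adjusted p = 2.54e-08). The difference between the 48 h and 24 h effects was -0.34 on the log2 scale and was not called (SE 0.119, adjusted p = 0.0986).

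Ghr was also the member called at 300 µM. At 48 h its 300 µM wells read 4020, 4144, 4129, 4228 and 4831 on 1373803_a_at. Each was below the lowest vehicle well, which read 5708, and replicate 5 stood above the other 4. The signal was 1.41-fold lower (log2 change -0.50, SE 0.0843, adjusted p = 0.00046). At 24 h the 300 µM wells read 4620, 5144, 4827, 4761 and 4448, just below the lowest vehicle well at 5215. That change was -0.26 (adjusted p = 0.102) and missed the threshold although the wells did not overlap.

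The signal of Ghr on this probe set was lower at the higher dose at each time. Against 300 µM, 3000 µM had a log2 difference of -0.52 at 48 h (adjusted p = 7.7e-06) and -0.42 at 24 h (adjusted p = 0.00026), with no overlap of wells. The order of the means ran from vehicle at 48 h (12.56) through vehicle at 24 h (12.47), 300 µM at 24 h (12.22), 300 µM at 48 h (12.06) and 3000 µM at 24 h (11.80) down to 3000 µM at 48 h (11.54). Neighbours at the same dose overlapped, and neighbours at different doses did not.

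The dimmer Ghr probe set, 1368924_at, gave a smaller and less ordered decrease. At 48 h it read 1022, 905, 1284, 1569 and 1135 at 3000 µM, against 1387, 1560, 1865, 1675 and 1327 in vehicle wells. Replicate 4 of 3000 µM lay inside the vehicle range, and the call was kept at a log2 change of -0.42 (SE 0.128, adjusted p = 0.00933). At 24 h the log2 change was -0.57 (adjusted p = 0.000741) and the wells did not overlap. At 300 µM the change was -0.40 at 48 h (adjusted p = 0.12) and -0.23 at 24 h (adjusted p = 0.432), neither of them called. Between the doses the log2 difference was -0.02 at 48 h (95% confidence interval -0.28 to 0.24, adjusted p = 0.939) and -0.34 at 24 h, at the edge of the threshold (adjusted p = 0.0499).

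Bcl6 had 1 probe set, 1379368_at. At 48 h its 3000 µM wells read 1910, 1252, 1243, 816 and 937. The vehicle wells read 3231, 3045, 2988, 3709 and 3001. The treated wells were the more scattered, with replicate 1 the highest and replicate 4 the lowest, and none reached the vehicle range. Bcl6 was 2.7-fold lower (log2 mean 10.20 ± 0.471 against 11.64 ± 0.131 in vehicle, SD, n = 5 each; log2 change -1.43, SE 0.147, adjusted p = 1.64e-09), and -1.30 without the 2 arrays that stood apart (adjusted p = 4.62e-09).

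At 24 h Bcl6 read 1759, 1120, 1276, 1471 and 1647 at 3000 µM, against 2420, 2651, 2942, 3014 and 3487 in vehicle wells. The groups did not overlap and the signal was 2.01-fold lower (log2 change -1.01, SE 0.147, adjusted p = 2.1e-06). It was -1.07 on the log2 scale without the 2 arrays that stood apart (adjusted p = 2.89e-07). At 300 µM and 48 h the wells read 2850, 2617, 2845, 2480 and 2464, all under the lowest vehicle well at 2988, yet the change of -0.27 was not called (adjusted p = 0.506). At 300 µM and 24 h the change was 0.02 (95% confidence interval -0.28 to 0.32, adjusted p = 0.976).

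In order of its means Bcl6 was highest in vehicle at 48 h (11.64), followed by 300 µM at 24 h (11.52), vehicle at 24 h (11.49), 300 µM at 48 h (11.37), 3000 µM at 24 h (10.49) and 3000 µM at 48 h (10.20). The only neighbours whose wells did not overlap were 3000 µM at 24 h, at most 1759, and 300 µM at 48 h, at least 2464. Against 300 µM, the log2 difference at 3000 µM was -1.17 at 48 h (adjusted p = 1.23e-07) and -1.03 at 24 h (adjusted p = 2.19e-06). The difference between the 48 h and 24 h effects of 3000 µM was -0.43 and was not called (adjusted p = 0.257).

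Stat5b, which carries the receptor's signal to the genome, had 1 probe set, 1387876_at, close to the level at which probe sets were tested. At 48 h it read 521, 446, 485, 826 and 549 at 3000 µM. The vehicle wells read 249.9, 374, 409, 418 and 315. No wells overlapped, although replicate 4 of 3000 µM stood well above the rest. Stat5b was 1.59-fold higher (log2 change 0.67, SE 0.236, adjusted p = 0.0232). The call was lost without the 2 arrays that stood apart (0.52, adjusted p = 0.0909), without replicate 4 of 3000 µM alone (0.52, adjusted p = 0.0865) and without replicate 1 of vehicle (0.55, adjusted p = 0.0796).

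At 24 h Stat5b read 522, 336, 489, 496 and 422 at 3000 µM, within the vehicle range of 321 to 579, and the change was -0.05 (95% confidence interval -0.53 to 0.43, adjusted p = 0.907). At 300 µM its log2 change was 0.16 at 48 h (adjusted p = 0.88) and -0.27 at 24 h (adjusted p = 0.681), neither of them called. The difference between the effects of 3000 µM at the 2 times was 0.72 and was not called (95% confidence interval 0.04 to 1.40, adjusted p = 0.236). Stat5b was highest in 3000 µM at 48 h (9.11), and the other 5 group means, between 8.44 and 8.85, had overlapping wells.

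Igfbp1, the bright binding protein probe set 1368160_at, was called in none of the comparisons in the fit of all groups. At 48 h it read 70409, 72180, 69046, 94891 and 58084 at 3000 µM. Vehicle wells read 65673, 72121, 64832, 74198 and 70532. The treated wells spread to both sides of the vehicle wells, and the highest was replicate 4, an array that stood apart. The log2 change was 0.05 (95% confidence interval -0.12 to 0.22, adjusted p = 0.654), and -0.05 without the 2 arrays that stood apart (adjusted p = 0.633). The probe set ranked between the 99.6 and 99.9 percentiles of every array, and whether its signal was saturated was not tested.

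At 24 h Igfbp1 read 57682, 60506, 59194, 61352 and 61037 at 3000 µM, against 74587, 72315, 60072, 62907 and 66346 in vehicle wells. The treated wells were close together near the lower end of the vehicle range, and the log2 change was -0.16 (95% confidence interval -0.33 to 0.01, adjusted p = 0.146). With only the compared groups in the fit this change was called (-0.16, adjusted p = 0.0284). At 300 µM the change was -0.06 at 48 h (adjusted p = 0.88) and -0.17 at 24 h (adjusted p = 0.343), neither of them called. All 6 group means of Igfbp1 lay between 15.86 and 16.14, and wells of neighbouring groups overlapped throughout. The windows of Igf1, Igfbp1 and Cish all hold the core CAAAACA shown above. At 3000 µM and 48 h their log2 changes were -1.21 (1370333_a_at), 0.05 and -0.05 (1378586_at, below the tested level). Whether the core has a part in any of these values was not tested.

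**Figure D2:**
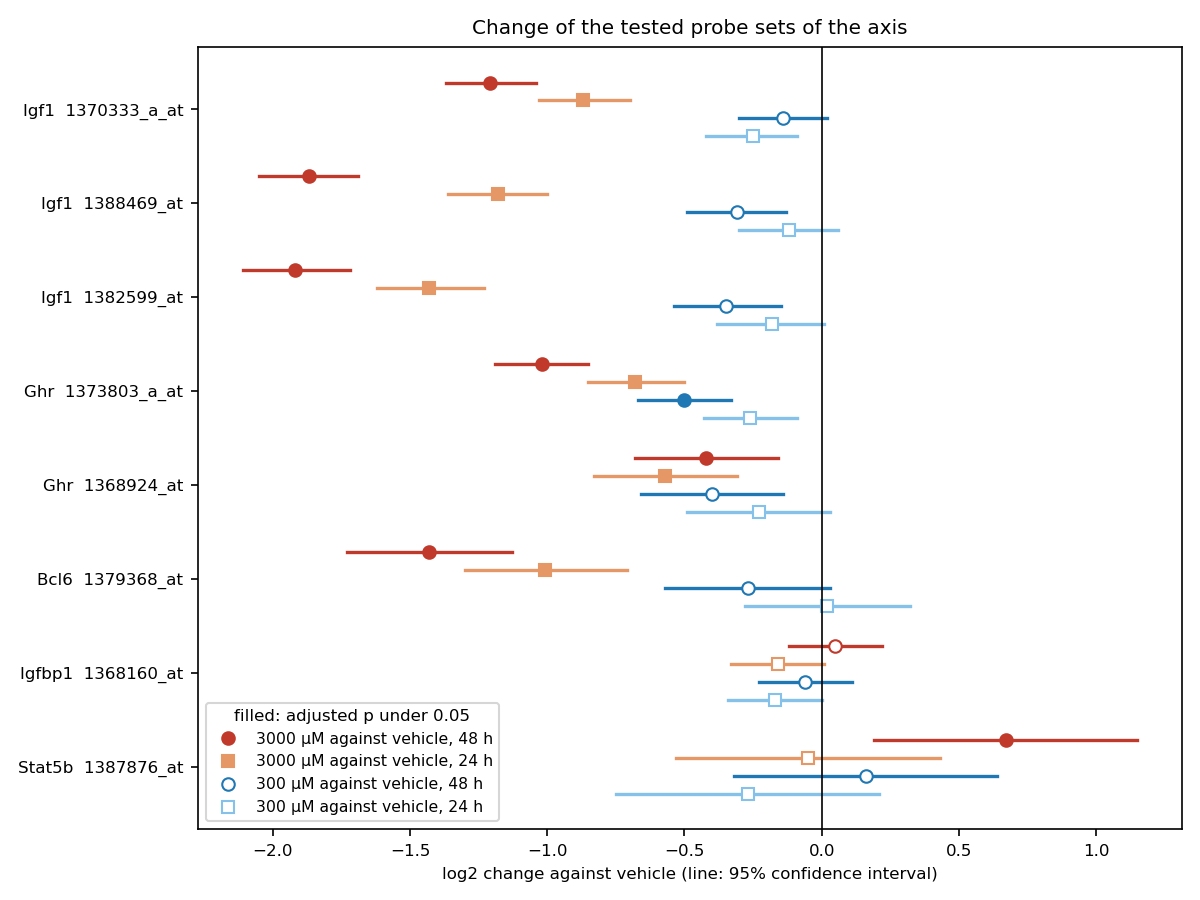
Log2 change against vehicle (horizontal axis) of the 8 tested probe sets of the axis, for 3000 µM and 300 µM at 48 h and 24 h; lines are 95% confidence intervals and filled symbols passed an adjusted p of 0.05. The 3 Igf1 probe sets range from -1.92 to -1.21 at 3000 µM and 48 h, Igfbp1 stays near 0, and Ghr 1373803_a_at holds the only filled symbol at 300 µM.

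The feedback inhibitors and the acid labile subunit were dim in every group. Socs2 (1369577_at) had group medians between 17.1 and 73.7, Igfals (1387816_at) between 20.6 and 37.0, and Cish between 274 and 346 on 1378586_at and between 32.3 and 149 on 1388233_at, all below the tested level of 383.6. The deposited table carries no detection calls, so whether these transcripts were present was not settled. In vehicle wells at 48 h Socs2 read 57.4, 109, 27.8, 7.74 and 38.0, a wide spread within a group. When all probe sets were tested without the filter, none of the 4 probe sets was called by limma in any comparison. At 300 µM the log2 changes of Socs2 were 1.00 at 48 h (adjusted p = 0.753) and -1.63 at 24 h (adjusted p = 0.283), and its 300 µM wells at 24 h read 29.1, 17.1, 7.96, 16.6 and 21.2 against 51.1, 67.6, 143, 21.2 and 38.5 in vehicle. At 3000 µM and 48 h the log2 change was -0.05 for Cish 1378586_at (95% confidence interval -0.58 to 0.48) and -0.63 for Igfals (95% confidence interval -1.46 to 0.20), neither of them called.

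At 300 µM few members were called. At 48 h 1 of the 5 tested members was called, Ghr, where 1.54% of all tested probe sets were called and 0.723% were called lower. At 24 h limma called 0 of the 5, where 2.99% of all tested probe sets were called, and 3 members (Ghr, Igf1 and Igfbp1) had an unadjusted p under 0.05, as had 14.5% of all tested probe sets. Igf1 1370333_a_at read 35220, 33110, 33365, 32727 and 36549 at 300 µM and 48 h, overlapping the vehicle range of 35056 to 39709 (log2 change -0.14, adjusted p = 0.533). At 24 h it read 32899, 28855, 33989, 31665 and 35837, with 1 well inside the vehicle range (log2 change -0.25, adjusted p = 0.0906). The other 2 Igf1 probe sets at 300 µM and 48 h lay wholly below vehicle and missed the threshold, at -0.31 for 1388469_at (adjusted p = 0.0652) and -0.35 for 1382599_at (adjusted p = 0.0571). Without the 2 arrays that stood apart both were called at those sizes (adjusted p = 0.0421 for 1388469_at and 0.0391 for 1382599_at).

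Set against each other, the 2 doses differed for Igf1, Ghr and Bcl6, whereas Stat5b at 48 h was not called between them (log2 difference 0.51, adjusted p = 0.0929). The 3000 µM wells were lower than the 300 µM wells for those 3 genes at both times, 3 of 5 members, where 34.9% of all tested probe sets were called at 48 h (16.9% lower) and 26.1% at 24 h (12.2% lower). The log2 difference of Igf1 1370333_a_at was -1.07 at 48 h (adjusted p = 3.09e-12) and -0.61 at 24 h (adjusted p = 4.4e-07). The comparisons at a given time share arrays, so their values stand side by side and are not independent of each other.

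Time in vehicle brought no call among the members in the fit of all groups, with Igf1 1388469_at at the edge of the threshold (log2 change 0.28, adjusted p = 0.0501). Between 48 h and 24 h limma called 0 of the 5 members, where 7.2% of all tested probe sets were called. An unadjusted p under 0.05 was found for 0 of the 5 and for 20.4% of all tested probe sets. The changes of the representative probe sets ran from -0.41 for Stat5b to 0.14 for Bcl6. The effect of 3000 µM differed between the times for 0 of the 5 representative probe sets, where 4.15% of all tested probe sets were called. Of the 5, 4 had an unadjusted p under 0.05, as had 18.9% of all tested probe sets. The effect of 300 µM differed between the times for 0 of the 5, with 0 at an unadjusted p under 0.05. Of all tested probe sets 0% were called and 1251 (7.54%) had an unadjusted p under 0.05.

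In the rest of the receptor's signalling chain, Ptpn2 was higher and Grb2 and Hnf4a were lower at 3000 µM at both times. Of 15 tested genes in a list of 19, 1 was higher and 3 were lower at 3000 µM at each time, where 39.4% of all tested probe sets were called at 48 h and 32% at 24 h. At 300 µM limma called 0 of the 15, where 1.54% of all tested probe sets were called at 48 h and 2.99% at 24 h. Of the 15, 2 had an unadjusted p under 0.05 at 48 h and 4 at 24 h, as had 11.9% and 14.5% of all tested probe sets. The median log2 change of the list at 3000 µM was -0.03 at 48 h and -0.05 at 24 h, against -0.0008 and 0.0093 over all tested probe sets. Jak2, the kinase bound to the receptor, had log2 changes of 0.28 at 48 h (adjusted p = 0.313) and 0.45 at 24 h (adjusted p = 0.104) and was not called. It reached the tested level only in 3000 µM at 48 h, its highest group, and its values are given as a description. Stat5a, the close relative of Stat5b, had log2 changes of 0.05 at 48 h (adjusted p = 0.837) and 0.06 at 24 h (adjusted p = 0.796) and was not called either. Ptpn2, a phosphatase of the JAK-STAT pathway, had log2 changes of 0.23 at 48 h (adjusted p = 0.013) and 0.33 at 24 h (adjusted p = 0.000918). The adaptor Grb2 had log2 changes of -0.42 at 48 h and -0.31 at 24 h, and Hnf4a, a master regulator of hepatocyte genes, had -0.43 and -0.17. Onecut1, a liver transcription factor that growth hormone induces in rat, was lower at 48 h (log2 change -1.24, adjusted p = 4.63e-07), and Stat3 was lower at 24 h (log2 change -0.30, adjusted p = 0.0318). The suppressor Socs1, the adaptor Irs1 and Cux2, a repressor typical of female liver, stayed below the tested level.

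Among the IGF ligands, receptors and binding proteins, Igf2r was lower at 3000 µM at both times. Of 11 tested genes in a list of 15, 1 was higher and 5 were lower at 3000 µM at 48 h, and 1 was lower at 24 h, where 39.4% and 32% of all tested probe sets were called. The counts at 48 h include Igfbp3, Stc1 and Stc2, which were tested through groups where they are high, as given below. The effect of 3000 µM was called by limma as different between the times for 0 of the 11, where 4.15% of all tested probe sets were called. Of the 11, 2 (Igfbp4 and Stc1) had an unadjusted p under 0.05, as had 18.9% of all tested probe sets. The median log2 change of the list was -0.36 at 48 h and -0.09 at 24 h. Igfbp3, the main partner of IGF1 in blood, was higher at 48 h (log2 change 0.94, adjusted p = 0.0252), with log2 means of 9.01 ± 0.251 against 8.06 ± 0.418 in vehicle (SD, n = 5 each), and its log2 change was -0.01 at 24 h (adjusted p = 0.982). Igfbp3 reached the tested level of 8.58 in only 2 groups, 3000 µM (9.01) and 300 µM (8.59) at 48 h, so that it was tested through groups where it is high, and its call is given as a description. Igf2r, which clears IGF2, was lower at 48 h (log2 change -0.63, adjusted p = 7.97e-05) and at 24 h (log2 change -0.36, adjusted p = 0.021). Stc1 and Stc2, whose products inhibit the protease that frees IGF from IGFBP4, were lower at 48 h with log2 changes of -1.39 and -0.86. Both reached the tested level in the vehicle and 300 µM groups but not at 3000 µM. They were thus tested through groups where they are high, and their calls are given as a description. Igfbp4, another binding protein, and the insulin receptor Insr were also lower at 48 h, with log2 changes of -0.64 and -0.36. Igf1r, the receptor of IGF1, had a log2 change of -0.08 at each time and was not called. At 300 µM the list held 1 call, Igfbp4, which was higher at 24 h (log2 change 0.53, adjusted p = 0.0433), where 2.99% of all tested probe sets were called. Igf2, Igfbp2 and Igfbp6 stayed below the tested level in every group.

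**Figure D3:**
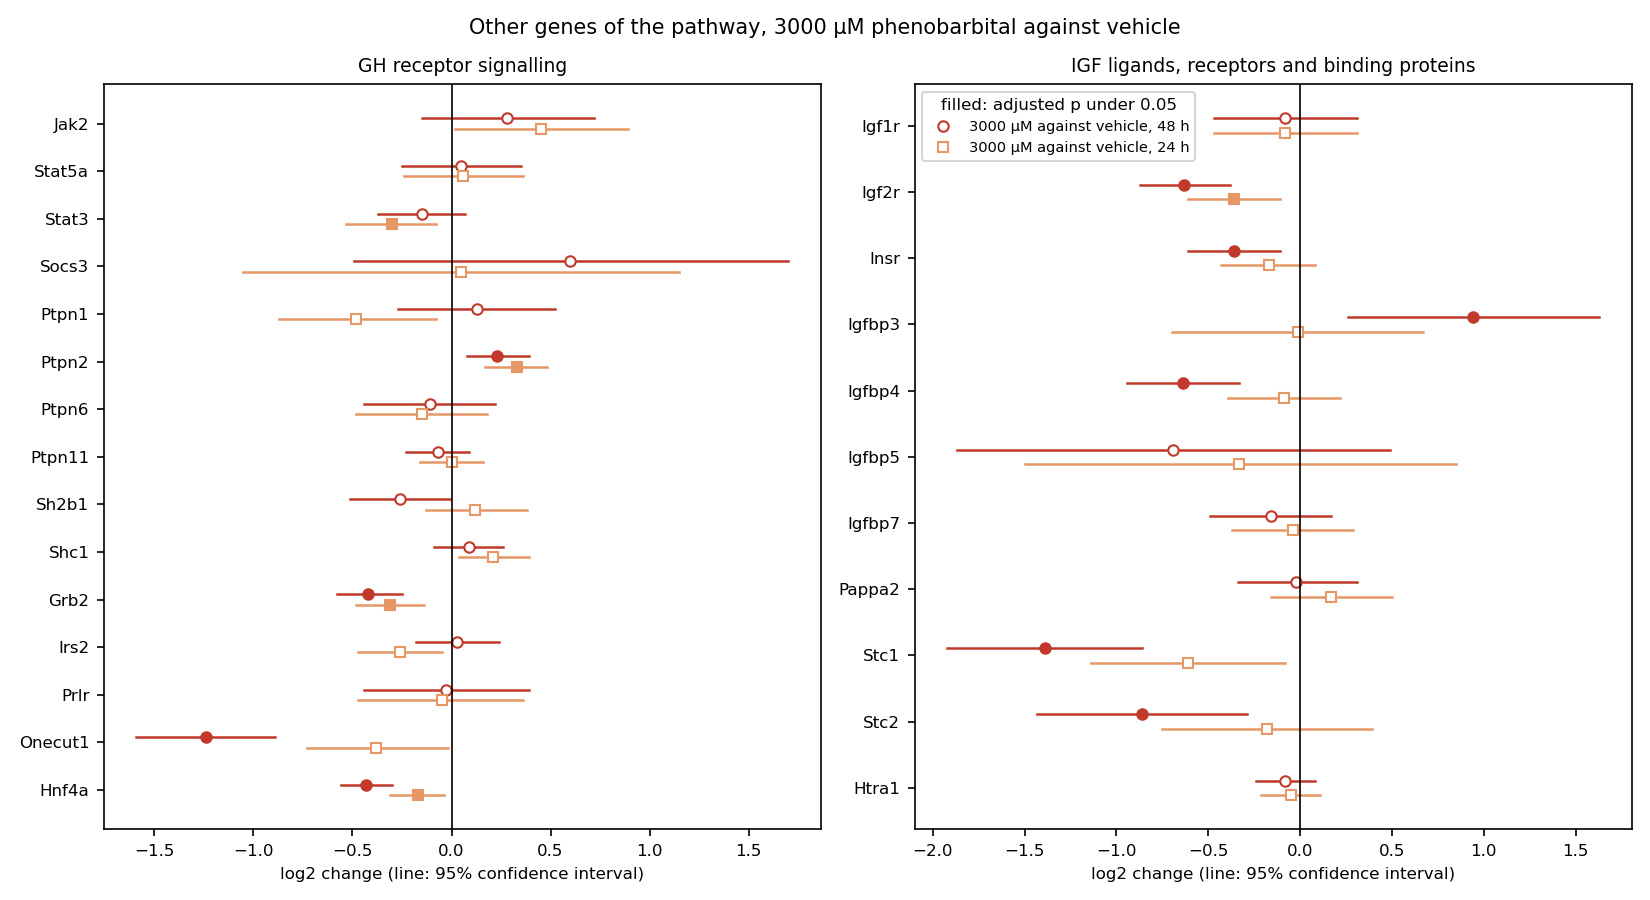
Log2 change at 3000 µM against vehicle (horizontal axis) of the tested genes of growth hormone receptor signalling (left) and of the IGF ligands, receptors and binding proteins (right), at 48 h and 24 h; lines are 95% confidence intervals and filled symbols passed an adjusted p of 0.05. Onecut1 at -1.24 in the left panel and Stc1 at -1.39 in the right panel lie farthest to the left, both at 48 h.

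The sex-patterned genes of rat liver, whose levels follow the pattern of growth hormone release, split in direction. At 3000 µM, 3 of 12 tested genes in a list of 16 were higher and 6 were lower at each time, where 39.4% of all tested probe sets were called at 48 h and 32% at 24 h. Male-specific Cyp3a2 was higher, with log2 changes of 1.12 at 48 h and 0.64 at 24 h, and so was Sult1e1, an oestrogen sulfotransferase, at 0.48 and 0.64. The steroid dehydrogenase Hsd3b5 was lower, with log2 changes of -1.17 at 48 h and -1.05 at 24 h. The transporter Slco1a1 was lower at log2 changes of -0.85 and -0.40, and male-specific Cyp2a2 at -0.71 and -0.41. Female-specific Cyp2c12 was lower at 48 h (log2 change -1.41, adjusted p = 8.88e-09) and at 24 h (log2 change -0.62, adjusted p = 0.00256). Male-specific Cyp2c11 had log2 changes of 0.15 at 48 h (adjusted p = 0.0616) and 0.16 at 24 h (adjusted p = 0.0518) and was not called. Several of these genes are cytochromes P450 of families that phenobarbital induces in rat liver, and close relatives within them may share probes, so that their values are uncertain.

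At 300 µM the same list held 4 higher and 1 lower of 12 genes at 48 h, and 5 higher and 1 lower at 24 h, where 1.54% and 2.99% of all tested probe sets were called. Cyp3a2 was higher, with log2 changes of 1.32 at 48 h and 0.68 at 24 h, as was Cyp2c11 at 0.57 and 0.30. Slco1a1 was lower, with log2 changes of -0.64 at 48 h and -0.41 at 24 h. Cyp2a1 lay on opposite sides of vehicle at the 2 doses. Its log2 means at 48 h were 12.62 at 300 µM, 11.20 at 3000 µM and 12.34 in vehicle. At 24 h they were 13.21, 11.92 and 12.72 in the same order. In vehicle wells, 8 of the 12 were lower at 48 h than at 24 h and none was higher, where 7.2% of all tested probe sets were called, and the median log2 change was -0.59 against 0.0256 over all tested probe sets. With time in vehicle the log2 change was -1.72 for Cyp3a2, -1.37 for Cyp2c13 and -0.52 for Cyp2c11. Over the same interval the log2 change was 0.08 for Ghr (adjusted p = 0.643) and -0.04 for Igf1 1370333_a_at, neither of them called.

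**Figure D4:**
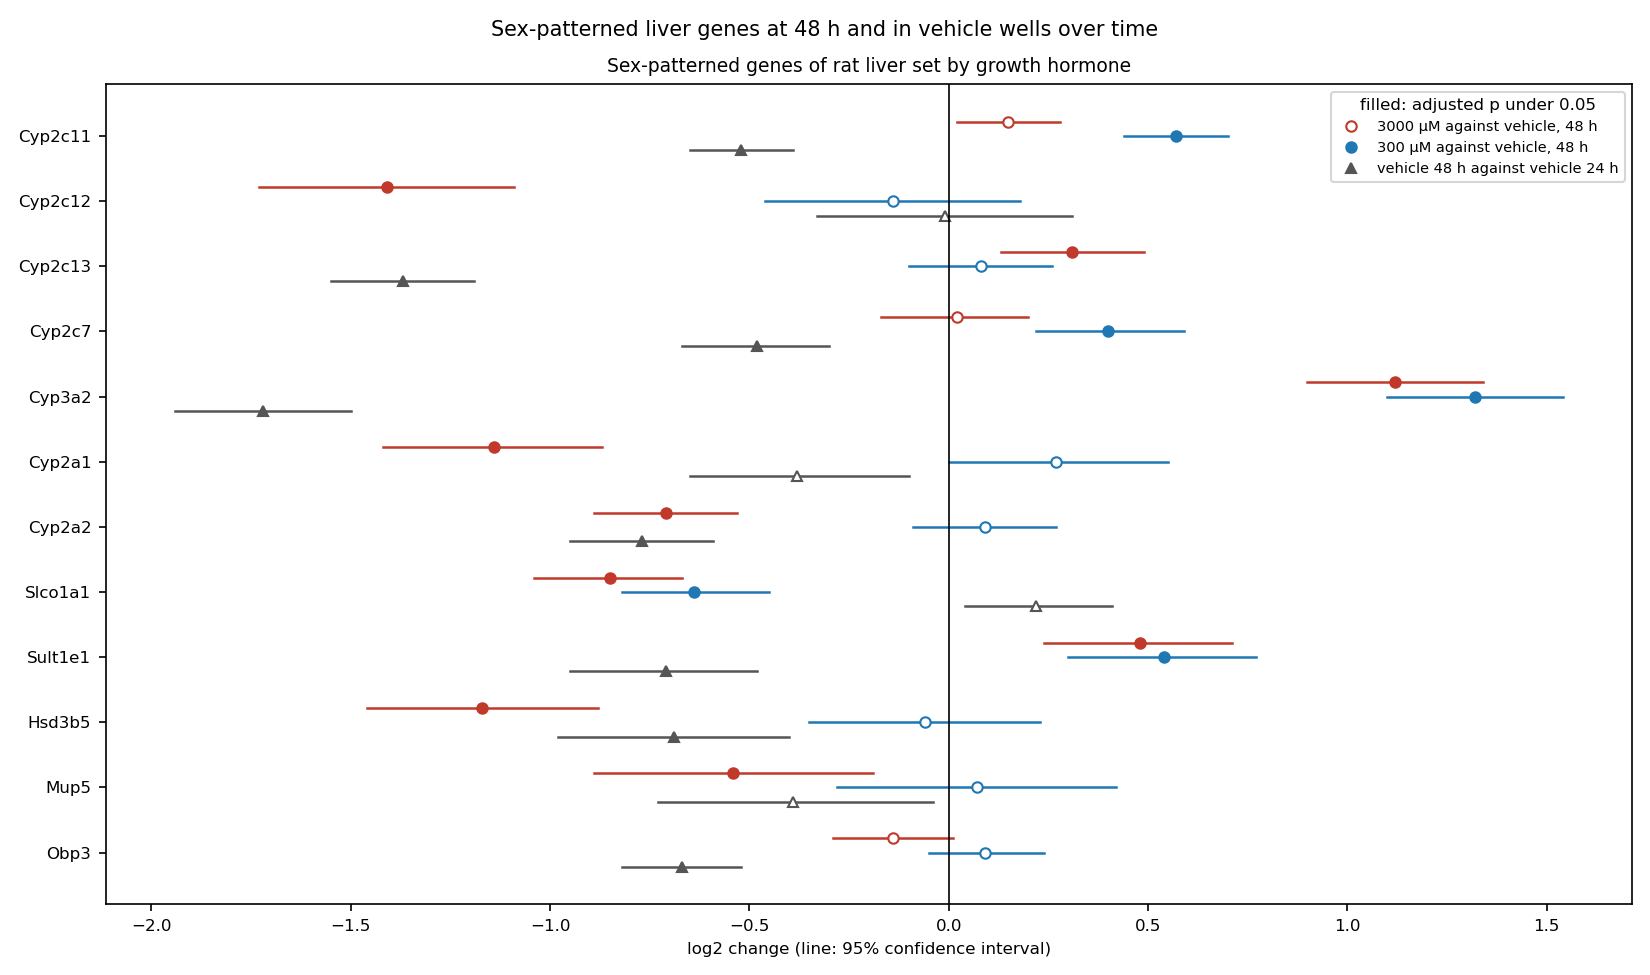
Log2 change (horizontal axis) of 12 sex-patterned genes of rat liver for 3000 µM against vehicle at 48 h, 300 µM against vehicle at 48 h, and vehicle at 48 h against vehicle at 24 h; lines are 95% confidence intervals and filled symbols passed an adjusted p of 0.05. In vehicle wells 8 genes fell with time and none rose, and Cyp3a2 lies at -1.72 there but at 1.12 and 1.32 under the drug.

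Genes that the factor FoxO1 activates and insulin represses, a class to which Igfbp1 belongs, were followed as a further list of 9 tested genes. At 3000 µM 2 were higher and 4 lower at 48 h, and 0 higher and 4 lower at 24 h, with median log2 changes of -0.31 and -0.37, where 39.4% of all tested probe sets were called at 48 h and 32% at 24 h. Foxo1 itself had a log2 mean at 48 h of 7.06 ± 1.13 at 3000 µM against 8.75 ± 0.23 in vehicle (SD, n = 5 each). At 24 h these means were 7.85 ± 1.72 and 8.66 ± 0.62. Foxo1 reached the tested level only in the vehicle groups. It was thus tested through groups where it is high. Its values, and any part it has in the counts and medians of the list, are given as a description. Pdk4, a kinase that spares glucose, was lower at 3000 µM, with log2 changes of -0.48 at 48 h and -0.90 at 24 h, and lower at 300 µM and 48 h (log2 change -0.37, adjusted p = 0.0066). The transcription factor Klf15 was higher at 48 h (log2 change 0.36, adjusted p = 0.00176), whereas Pck1, the gluconeogenic enzyme, was lower at 24 h (log2 change -0.70, adjusted p = 0.0448). Stress genes driven by ATF4, a factor that in human liver cells also acts on the IGFBP1 gene, were mostly higher. Of 12, 9 were higher and 1 was lower at 3000 µM and 48 h, and 8 were higher and 1 was lower at 24 h, beside the same shares of 39.4% and 32% over all tested probe sets. Ddit3, a factor of prolonged stress, was higher with log2 changes of 2.12 at 48 h and 1.29 at 24 h. Fgf21, a hormone that lowers growth hormone signalling in mouse liver, was the 1 lower gene, with a geometric mean signal of 3308 against 6626 in vehicle at 48 h and 2775 against 4736 at 24 h. At 300 µM and 48 h the ATF4 list held 0 limma calls, where 1.54% of all tested probe sets were called. There 2 of its 12 genes (Ddit3 and Trib3) had an unadjusted p under 0.05, as had 11.9% of all tested probe sets. At 300 µM and 24 h 1 gene was lower, where 2.99% of all tested probe sets were called.

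Hepatocyte markers were bright in every well, and 5 of 7 tested markers were lower at 3000 µM at 24 h, where 14.8% of all tested probe sets were called lower, beside the decreases of Igf1, Ghr and Bcl6. Their median log2 change was -0.27, and their summed signal was 384087 to 418930 at 3000 µM against 434052 to 600632 in vehicle. The medians of the summed signal were 391741 and 456224. These markers are given with all arrays only, among them replicate 1 of vehicle at 24 h, an array that stood apart. At 48 h 2 were lower (Hnf4a, and Cps1 with a log2 change of -0.31), where 19.9% of all tested probe sets were called lower, the median log2 change was 0.09, and the summed signal was 370648 to 655469 against 387662 to 450028 in vehicle. Their part in the decreases of the axis was not tested. Macrophage markers reached the tested level for 5 of 7 genes on the array. At 3000 µM Cd68 and Lyz2 were higher at 48 h (log2 changes 0.80 and 0.29) and 24 h (0.54 and 0.20). Cd14 was lower at 24 h (-0.16). Of all tested probe sets 39.4% were called at 48 h and 32% at 24 h. Clec4f and Csf1r were called at neither time. At 3000 µM and 48 h their log2 means were 8.74 and 8.71, against 8.77 and 8.55 in vehicle. Cd163 and Ptprc, below the tested level, had geometric mean signals there of 85.1 and 58.3 against 198 and 104. The summed signal of the macrophage list at 48 h was 21877 to 24562 at 3000 µM against 18473 to 21602 in vehicle. At 24 h it was 25159 to 27191 against 26028 to 26795. Of 5 tested stellate and fibroblast markers 1, Rgs5, was lower at 3000 µM, with log2 changes of -1.07 at 48 h and -0.43 at 24 h. Of all tested probe sets 19.9% were called lower at 48 h and 14.8% at 24 h. The summed signal of the stellate and fibroblast list at 48 h was 2987 to 3613 against 3629 to 4278 in vehicle. The endothelial markers Pecam1, Vwf, Stab2 and Lyve1 and the cholangiocyte markers Krt19, Krt7, Spp1 and Cftr stayed below the tested level in every group. Of 2 tested endothelial markers 1, Eng, was higher at 3000 µM and 48 h (log2 change 0.47), where 19.5% of all tested probe sets were called higher. The median log2 change of the 2 was 0.14, and the summed signal of the endothelial list was 1114 to 1788 against 1220 to 1778 in vehicle. The epithelial gene Epcam, the 1 tested cholangiocyte marker, was lower there (log2 change -0.14), where 19.9% of all tested probe sets were called lower.

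Across the 30 arrays, the genes whose log2 signals followed each member most closely were named among 9820 other genes by Pearson's r. For Igf1 these were Decr1 (r = 0.982), Masp2 (0.980) and Ang (0.976), and for Ghr they were Ces1d (0.948), Cyp4a1 (0.938) and Nudt7 (0.930). For Bcl6 they were Poteml2 (0.961), Scrn3 (0.956) and Klf10 (0.951), and for Igfbp1 Anxa2 (0.904), Krt8 (0.874) and Ahsg (0.870). Stat5b had no close match, the highest r being 0.656 with Foxred1, followed by Snd1 (0.646) and Mrpl4 (0.644). The arrays share dose, time and scaling, so the coefficients describe likeness in these wells only.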

How the data were processed

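The deposited table holds 1 column of linear probe set signal intensity for each of the 30 arrays, made by the authors with MAS5 per the submitters' processing notes (version not given); the genome build is not given in the sources used here. Every array has the same trimmed mean of 1500.0 when 2% is trimmed at each end, and the array medians run from 348.7 to 424.9. Of 31099 probe sets, 20826 carry 1 gene symbol in the platform annotation, 436 several and 9780 none, and 57 are controls, which were left out. All 8 members were found in the RefSeq gene table.

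Signals were taken to log2 with nothing added. A probe set was tested if its highest group mean was at or above the median over the whole table, which left 16596. Group means of all 30 arrays were fitted with limma 3.58.1 in R 4.3.3 (empirical Bayes with trend and robust estimation, two-sided), with Benjamini-Hochberg adjustment over all tested probe sets. A filter that looks at the highest group can favour probe sets that differ. Summaries used Python 3.11.15 and pandas 2.3.3. The fit was tested on simulated data. The precision is limited by 5 arrays a group.

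The members and gene lists were chosen with earlier results of these data known. Named genes are the members, called or defining genes of those lists, and the 3 genes most like each tested member. Not every called gene of a list is named.

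The titles carry a running number in sets of 6 that holds each group. Arrays of the same set did not deviate together (r of deviations -0.064 to 0.094, median 0.003), so the set was used only as an alternative. The other alternatives were normalization, filter, added constant, samples in the fit, array weights, variance moderation, probe set per gene and leaving out each array.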

Additional observations from a re-analysis of the deposited data

Results flagged for a closer look

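Replicate 5 of 300 µM at 48 h read 4831 for Ghr 1373803_a_at, apart from the other 4 wells of its group, which read 4020 to 4228. It was the only such well among 72 groups of 5 values checked, where chance alone marks about 1 in 20. It lay nearest to vehicle among the 300 µM wells, and without it the call of Ghr at 300 µM and 48 h was kept.

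The effect of 3000 µM on Igf1 differed between 48 h and 24 h on 2 of its 3 probe sets, by a log2 difference of -0.69 on 1388469_at and -0.49 on 1382599_at, the larger decrease being at 48 h. On 1388469_at the adjusted p stayed under 0.05 under every alternative run, with values of -0.76 to -0.62. On 1382599_at it did not. It was 0.0761 with array medians centred, 0.0666 without the filter, 0.0805 with only the compared groups in the fit and 0.0536 with variance moderation without trend and robust estimation. Leaving out any of these arrays raised it above 0.05: replicates 1, 4 and 5 of 3000 µM at 24 h, replicates 2 and 5 of 3000 µM at 48 h, replicates 1 and 2 of vehicle at 24 h, and replicates 1 and 3 of vehicle at 48 h, with values of -0.49 to -0.42.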

How the results depend on the processing

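No called member changed direction under any alternative, and of 1591 values of single probe sets 1534 kept their side of the threshold, 27 lost and 30 gained a call. The count of called members stayed within 1.5 times of the main count in 201 of 209 recounts. At 300 µM and 24 h, 0 members became 1 with only the compared groups in the fit (Igf1), and 2 with array weights or without the 2 arrays whose hybridization controls stood apart (Igf1 and Ghr), a choice made after seeing the data. Vehicle over time gave 1 (Igfbp1) under quantile normalization, and Igf1 1388469_at was called there with quantile normalization (0.34, adjusted p = 0.0164), the 75th percentile filter (0.28, adjusted p = 0.0303), 32 added (0.28, adjusted p = 0.0486), and without replicate 2 of vehicle at 48 h or replicates 4 and 5 of vehicle at 24 h (0.30 to 0.34). At 300 µM and 48 h both other Igf1 probe sets gained a call under 5 alternatives each, at adjusted p of 0.00177 to 0.0421 for 1388469_at and 0.00813 to 0.0391 for 1382599_at. The time difference of the 3000 µM effect gave 1 under quantile normalization and 1 when any probe set counted (Igf1 both times), and 0 to 3 when an array was left out: 3 without replicate 1 of 3000 µM at 48 h (Igf1, Ghr and Bcl6) and 1 without replicate 3 (Ghr). Stat5b at 3000 µM and 48 h also lost its call with array weights (0.60, adjusted p = 0.057). Ghr 1368924_at between the doses at 24 h lost its call with array medians centred (-0.27, adjusted p = 0.129), without the filter (adjusted p = 0.0897), with variance moderation without trend and robust estimation (adjusted p = 0.0575), and without any of replicates 1, 2, 3 and 4 of 300 µM or replicates 2, 3 and 5 of 3000 µM, at -0.37 to -0.25. Stat5b gained a call between the doses at 48 h without replicate 5 of 300 µM (0.71, adjusted p = 0.0175).

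With the replicate block the counts of called members stayed at 4 and 3 for 3000 µM at 48 h and 24 h and at 1 and 0 for 300 µM, and Ghr 1368924_at (-0.40, adjusted p = 0.0321) and Igf1 1382599_at (-0.35, adjusted p = 0.0358) were called in addition at 300 µM and 48 h. The running number is not known to pair wells, and 9 of 30 arrays were closest to their own set.

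Centring each array on its median moved counts over all probe sets: 496 to 226 for 300 µM at 24 h, 255 to 124 at 48 h, 1195 to 734 for vehicle over time and 688 to 232 for the time difference at 3000 µM. It turned 2868 higher and 2451 lower into 3406 and 1678 for 3000 µM at 24 h, 2310 and 2026 into 2724 and 1363 for 3000 µM against 300 µM at 24 h, 135 and 120 into 83 and 41 for 300 µM at 48 h, 672 and 523 into 269 and 465 for vehicle over time, and 229 and 459 into 42 and 190 for the time difference at 3000 µM. The 255 calls at 300 µM and 48 h became 482 with only the compared groups, 615 with array weights, 467 without the 2 arrays that stood apart and 168 without replicate 4 of vehicle. The 496 at 24 h became 325 and 326 without replicates 2 and 4 of 300 µM. The 688 became 362 without the filter, 319 with only the compared groups, and 410, 429, 441, 418 and 437 without replicates 1 and 4 of 3000 µM at 24 h, replicates 1 and 3 of vehicle at 48 h and replicate 2 of vehicle at 24 h. No array-wise scaling moved the median of all probe sets by over 0.1. Dim probe sets are the least precise, as the standard errors of 0.621 for Socs2 and 0.0804 for Igf1 show.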
